A study of Mus musculus with 4 samples.

Results

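The lectin-like receptors of natural killer (NK) cells are a family of C-type lectin proteins that cytotoxic T cells also carry. Their genes bear Klr symbols, and 10 of them are described here: Klra8, Klra9, Klra3, Klrc1, Klrc2, Klrd1, Klre1, Klrk1, Klrg1 and Klrb1c. They were picked by symbol from the 55401 rows of the deposited count table, which holds 31 Klr genes and pseudogenes in all. The RNA came from splenic P14 CD8+ T cells of mice infected with lymphocytic choriomeningitis virus (LCMV) Armstrong; P14 cells carry a transgenic T cell receptor for that virus. In the Hic1 vector group (n = 2) the cells had been transduced to overexpress Hic1, a zinc finger transcriptional repressor, and in the empty vector group (n = 2) they had received the control vector. The time after infection is day 32 by the sample labels but day 7 by the series text. The sources used here do not give mouse strain, age or sex, or say whether the 2 libraries of a group came from separate mice, so p-values measure the spread between these samples. The libraries are Smart-seq2, each built on 5 µl of a lysate of 1000 cells that had been sorted once more.

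Most of these receptors sit in a gene cluster called the NK complex, and they read the state of neighbouring cells. Inhibitory members carry tyrosine motifs that recruit phosphatases when they bind class I molecules or cadherins. Activating members lack such motifs and signal through small membrane adaptors, among them DAP12 (gene Tyrobp) and DAP10 (gene Hcst). On CD8 T cells several of them appear after activation, and KLRG1 is a common marker of terminally differentiated effector cells.

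Total counts were 7501285 and 8839317 in the Hic1 vector libraries against 4017346 and 3941364 in the empty vector libraries, so genes with few reads were counted less precisely with the empty vector. Hic1 had 314 and 161 counts with the Hic1 vector and 3 and 5 with the empty vector, as the labels say. Xist, made from the inactive X chromosome, had 3590 counts in Hic1 vector replicate 1 and 1885 in empty vector replicate 1, while both replicates 2 were near 0 (3 counts with the Hic1 vector and 0 with the empty vector). Eif2s3y, on the Y chromosome, had 0 and 951 counts with the Hic1 vector and 0 and 396 with the empty vector. The replicate numbers thus separate libraries with female from libraries with male transcripts, and for the 10 receptors the differences within each number are given below beside the pooled ones. All 8 markers of CD8 T cells were detected in every library, with summed levels of 5942 and 6717 CPM (read counts scaled to a common library size) in the Hic1 vector libraries and 5476 and 5664 CPM in the empty vector libraries. Of 10 NK cell markers, Fcgr3 had 40 and 49 counts with the Hic1 vector and 4 and 8 with the empty vector, and Cd244a had 406 and 282 counts with the Hic1 vector and 99 and 90 with the empty vector. Ncam1 had 4 and 10 counts with the Hic1 vector and 1 and 2 with the empty vector. Ncr1, which encodes the NK receptor NKp46, had 1 and 1 counts with the Hic1 vector and 0 and 2 with the empty vector. In CPM, the groups of Itga2, Styk1, Fcer1g and Klri2 overlapped. The log2 fold changes (Hic1 vector over empty vector, ± SE) were 0.162 ± 0.357 for Itga2, 0.349 ± 0.504 for Styk1 and -0.153 ± 0.547 for Fcer1g. Klra4, also on this list, is described below. The 8 NK markers outside the Klr family summed to 5229 and 6044 CPM with the Hic1 vector and 7312 and 7104 CPM with the empty vector, nearly all of it Gzma, a granzyme that effector CD8 T cells also make. Summed levels of 7 B cell markers were higher with the Hic1 vector, at 279.3 and 213.7 CPM against 79.6 and 88.9 CPM with the empty vector. Most of that sum was Ighm, while Ms4a1 had 0 and 1 counts with the Hic1 vector and 0 and 2 with the empty vector. The part of B cell or NK cell RNA in the results below was not tested.

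Klra8 rose with the Hic1 vector, and the other 9 receptors did not pass the test. The test was edgeR's quasi-likelihood test over all 11676 genes kept by a filter on low counts, with a call at a Benjamini-Hochberg adjusted p below 0.05. It called 1.82% of all genes tested, 0.719% as higher and 1.1% as lower. At an unadjusted p below 0.05 stood 5 of the 10 receptors (19.1% of all genes tested), 4 of them higher with the Hic1 vector (9.41%). With so few receptors, 1 higher call describes Klra8 alone. All 10 passed the filter, but Klra8 did so through the Hic1 vector libraries alone, so its height there was a condition of being tested. The filter asks for 2 libraries over its cutoff. Klra9 had only 1 empty vector library over it, so it too passed only with the Hic1 vector libraries. The median log2 fold change of the 10 was 0.31, against 0.0087 for all genes tested. The receptors fell into 3 patterns: Klra genes and Klrb1c at higher values with the Hic1 vector, Klrk1 at lower values, and Klrc1, Klrc2, Klrd1, Klre1 and Klrg1 with groups that overlapped. Without overlap, 4 of the 10 lay above the empty vector libraries (26.5% of all genes tested did) and 1 lay below (24.9% did).

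**Figure D1:**
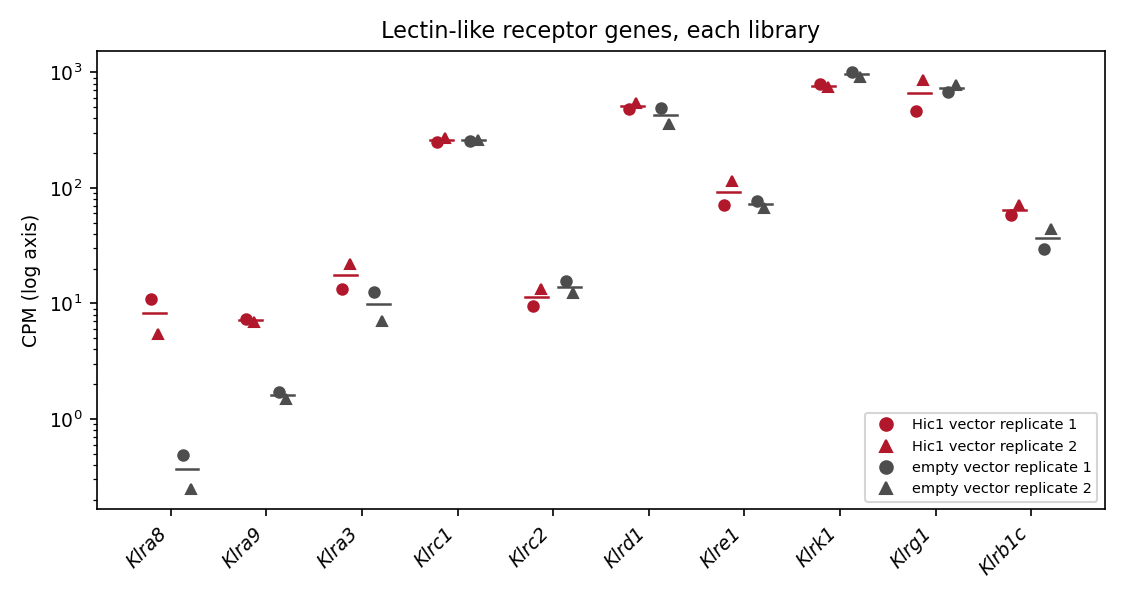
CPM of each receptor gene on a log axis, with 1 point per library, circles for replicate 1 and triangles for replicate 2, and a bar at the mean of each group (Hic1 vector left, empty vector right). Klra8 and Klra9 lie apart between the groups, while the points of Klrc1 lie between 249.8 and 270.5 CPM in all 4 libraries.

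The Klra genes encode the Ly49 receptors, the mouse counterpart of human killer immunoglobulin-like receptors. Klra8 encodes Ly49H, an activating receptor that pairs with DAP12 and recognises a cytomegalovirus protein on infected cells. It had 78 and 48 counts in the Hic1 vector libraries (10.98 and 5.47 CPM) and held 2 and 1 with the empty vector (0.4855 and 0.250 CPM). Both Hic1 vector libraries were far above both empty vector libraries, which had only a few reads of it. By edgeR's quasi-likelihood test the log2 fold change was 3.60 ± 0.768 (SE, n = 2 per group), with a Benjamini-Hochberg adjusted p of 0.0206. The log2 difference was 3.79 within replicate number 1 and 3.32 within number 2. From the counts alone, the Hic1 vector rate was 22.6 times the empty vector rate within number 1 (95% exact counting interval 6.06 to 190.1) and 21.9 times within number 2 (3.75 to 882.5), where the intervals cover counting error only. Klra8 was not called without Hic1 vector replicate 1, at a log2 value of 3.01, or without empty vector replicate 1, at 3.94 (adjusted p = 0.0749 and 0.128 by the same edgeR test). It was not called by limma voom either (3.99, adjusted p = 0.0907). DESeq2 gave a log2 fold change of 4.47 and no adjusted p. In bulk RNA, more cells with a transcript and more transcript per cell cannot be told apart.

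Klra9 encodes Ly49I and Klra3 encodes Ly49C, both inhibitory receptors for class I molecules. Klra9 had 52 and 61 counts with the Hic1 vector (7.32 and 6.95 CPM) and 7 and 6 counts with the empty vector (1.70 and 1.499 CPM). Its libraries agreed closely within each group and did not overlap between groups. The log2 fold change was 1.95 ± 0.546, the within-number differences were 1.91 and 1.99, and Klra9 missed the threshold by edgeR (adjusted p = 0.0667). Klra3 had 13.2 and 22.0 CPM with the Hic1 vector and 12.6 and 7.00 CPM with the empty vector, so its closest libraries differed little. Its log2 fold change was 0.83 ± 0.387 (adjusted p = 0.261 by edgeR), with differences of 0.07 within number 1 and 1.61 within number 2.

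The promoter windows of some Klra genes are close in sequence. The 4 windows below, from RefSeq on GRCm38.p6, run from 250 bases before to 50 after a transcription start, 5′ to 3′. They belong to the receptors above and to Klra4, whose counts are given next. Capitals mark GGGCA, the core letters of the HIC1 binding motif, which were searched on both strands.
Klra8 (chr6:130129849-130130148, minus strand): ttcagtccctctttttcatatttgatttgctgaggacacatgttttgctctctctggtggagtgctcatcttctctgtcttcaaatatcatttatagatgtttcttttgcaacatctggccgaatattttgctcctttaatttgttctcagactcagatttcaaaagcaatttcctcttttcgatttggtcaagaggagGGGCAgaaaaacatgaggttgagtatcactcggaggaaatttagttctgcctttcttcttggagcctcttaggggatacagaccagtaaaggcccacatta
Klra4 (chr6:130067222-130067521, minus strand): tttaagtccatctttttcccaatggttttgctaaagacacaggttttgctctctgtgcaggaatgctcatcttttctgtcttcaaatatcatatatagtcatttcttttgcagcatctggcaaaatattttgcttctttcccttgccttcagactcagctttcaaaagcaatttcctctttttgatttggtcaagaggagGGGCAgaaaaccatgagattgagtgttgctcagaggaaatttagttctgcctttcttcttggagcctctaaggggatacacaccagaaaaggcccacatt
Klra9 (chr6:130193063-130193362, minus strand): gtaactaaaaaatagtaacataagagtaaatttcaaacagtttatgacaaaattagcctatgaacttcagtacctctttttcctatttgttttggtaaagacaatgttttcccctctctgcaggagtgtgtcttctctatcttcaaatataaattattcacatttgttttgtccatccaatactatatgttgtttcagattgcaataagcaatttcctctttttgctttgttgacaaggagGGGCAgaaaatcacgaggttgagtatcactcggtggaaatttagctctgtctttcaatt
Klra3 (chr6:130337577-130337876, minus strand): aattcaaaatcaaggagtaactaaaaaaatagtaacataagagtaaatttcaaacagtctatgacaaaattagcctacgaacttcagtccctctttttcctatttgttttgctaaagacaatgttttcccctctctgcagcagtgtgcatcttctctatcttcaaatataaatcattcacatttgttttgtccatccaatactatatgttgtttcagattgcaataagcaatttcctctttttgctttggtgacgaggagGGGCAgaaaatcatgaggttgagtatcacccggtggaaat
The Klra8 and Klra4 windows were identical at 86.0% of alignment columns, gaps included, and the Klra9 and Klra3 windows at 85.0%. Between Klra8 and Klra9 the share was 53.0%. RefSeq lists a further, downstream start of Klra8, not shown, whose window overlaps the Klra8 window above. Those Klra8 windows were identical at only 65.3% of columns, so the share also falls when windows are offset. How much of the 53.0% comes from offset and how much from sequence difference was not tested. Each of the 4 windows held GGGCA in the same strand, 51 bases before the start in Klra8, 50 before it in Klra4, 9 before it in Klra9 and 11 after it in Klra3. These starts are those of RefSeq, and the whole Klra3 window lies upstream of the Klra3 gene model in GENCODE M21. Of 29 Klr windows, 26 had first transcribed bases that occur in a GENCODE transcript of the gene. The letters are common, since 53.5% of 32851 promoter windows of the same length held them, and 12 of 29 Klr windows did. On the same strand they also stood in the windows of Klra17, Klra5, Klra6 and Klra1, which had too few reads to test. The windows of Klra7, Klra10 and Klra2, also untested, lacked them. The Klra17 window was identical to the Klra8 window above at 79.0% of columns, so these traits are not particular to the genes with higher values. The T-box letters TCACACC (3.98% of all windows), the TCF/LEF letters CTTTGA (16.0%) and the AP-1 letters TGANTCA (7.81%) had no match on either strand in the 4 windows. RefSeq promoters were found for 8 of the 10 receptors.

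Among the other Klr genes, the pseudogene Klra14-ps rose, and Klra4 and Klra13-ps had higher values with the Hic1 vector that did not pass. Of 21 other Klr genes in the table, 5 were tested, 1 rose, 0 fell and 4 did not pass. The shares over all genes tested were 0.719% higher and 1.1% lower, and with 5 genes the call describes Klra14-ps alone. Another 14 had too few reads to test, with at most 28 counts in any library, and Klri1 and Klrh1 were at 0 throughout. Klra4, which encodes the activating, DAP12-coupled receptor Ly49D, had 308 and 401 counts with the Hic1 vector (43.4 and 45.7 CPM) and 38 and 1 with the empty vector (9.22 and 0.250 CPM). Both Hic1 vector libraries stood well above both empty vector libraries, but the empty vector libraries differed greatly from each other. Only 1 empty vector library was over the cutoff of the low-count filter, so Klra4 too passed it only with the Hic1 vector libraries. Within the replicate numbers the log2 differences of Klra4 were 2.19 and 6.30. Its log2 fold change was 3.14 ± 0.962 and it was not called by edgeR (adjusted p = 0.194), while leaving out either empty vector library gave a call. Without empty vector replicate 1 the value was 6.35 (adjusted p = 0.000617) and without empty vector replicate 2 it was 2.22 (adjusted p = 0.00633) by the same edgeR test. Those fits rest on 1 empty vector library, which is assumed to vary as the Hic1 vector libraries do.

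Klra14-ps lies between Klra8 and Klra9 on chromosome 6. It had 136 and 179 counts with the Hic1 vector (19.2 and 20.4 CPM) and 7 and 16 with the empty vector (1.70 and 3.997 CPM). Within the numbers the log2 differences were 3.26 and 2.26. The log2 fold change was 2.665 ± 0.428 (adjusted p = 0.0148 by edgeR), and the call was lost without empty vector replicate 1 (2.23, adjusted p = 0.103). Klra13-ps had 75 and 90 counts with the Hic1 vector and 15 and 10 with the empty vector, a log2 fold change of 1.66 ± 0.448 that missed the threshold (adjusted p = 0.0676 by edgeR). All 14 Klra genes and pseudogenes summed to 108.0 and 119.5 CPM with the Hic1 vector. With the empty vector they summed to 33.7 and 18.5 CPM. These sums do not depend on which Klra copy a read was assigned to. Any reads left uncounted because they fit several copies would be missing from them. Without Klra4, the sums were 64.6 and 73.8 CPM with the Hic1 vector and 24.5 and 18.2 CPM with the empty vector. In CPM, Klra5, Klra6, Klra7, Klra1, Klra2 and Klra11-ps had overlapping groups at 0 to 28 counts. Klra10 lay above with the Hic1 vector, at 2 and 8 counts against 0 and 1 with the empty vector. Klra17 lay below, at 1 and 1 counts with the Hic1 vector against 1 and 2. Both are near the limit of what this depth can count.

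**Figure D2:**
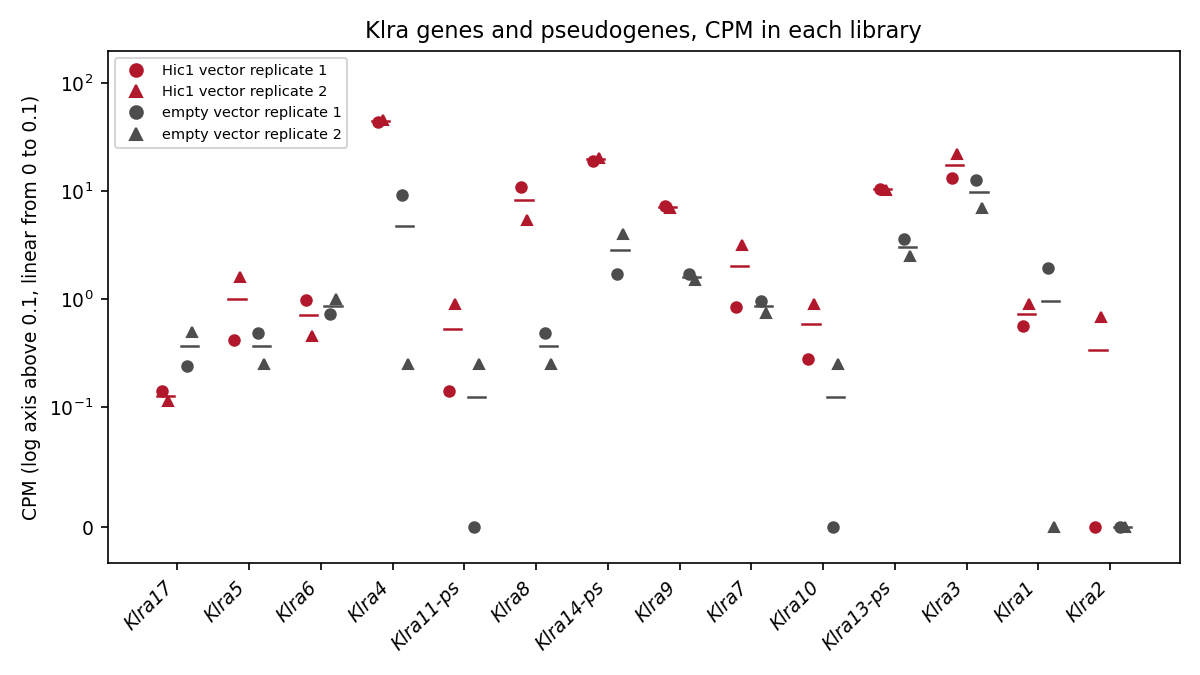
CPM of the 14 Klra genes and pseudogenes in their order along chromosome 6, 1 point per library with a bar at each group mean (Hic1 vector left, empty vector right), on a log axis above 0.1. Klra4, Klra8, Klra14-ps, Klra9 and Klra13-ps show both Hic1 vector libraries above both empty vector libraries, as do Klra3 by a small margin and Klra10 at very few counts.

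The Klra genes are near copies of each other, so reads may have been assigned to the wrong one. Of the 50-base windows of the longest coding transcript, 33.1% of Klra8, 32.4% of Klra9 and 21.5% of Klra3 also occur in a transcript of another gene in GENCODE M21. For Klra8 the most frequent partner was Klra14-ps, which holds 20.4% of its windows, and for Klra9 it was Klra3 with 13.6%. Klra4 shares 4.68% of its windows. Of the pseudogenes, Klra14-ps shares 22.0%, most often with Klra8 (16.9%), and Klra13-ps shares 13.1%, mostly with Klra7. How the submitters' counting treated reads that fit several genes is not stated in the sources used here. Its part in the values of Klra8, Klra9, Klra3, Klra14-ps and Klra13-ps was not tested. Klrd1, Klre1, Klrk1 and Klrg1 share no such window, Klrb1c shares 18.1%, and Klrc1 and Klrc2 share 40.3% and 30.1%, mostly with each other.

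Klrd1 encodes CD94, which pairs with the NKG2 chains from the Klrc genes to bind the class I-like molecule Qa-1. Neither it nor its partners passed. Klrd1 had 478.8 and 540.5 CPM with the Hic1 vector and 490.3 and 357.0 CPM with the empty vector, so the groups overlapped, with a log2 fold change of 0.27 ± 0.160 (adjusted p = 0.403 by edgeR). The log2 difference of Klrd1 was -0.034 within number 1 and 0.60 within number 2. Klrc1, which encodes the inhibitory chain NKG2A, was the steadiest of the 10, at 249.8 and 270.5 CPM with the Hic1 vector and 254.9 and 260.1 CPM with the empty vector (log2 fold change 0.015 ± 0.135, with -0.029 within number 1 and 0.057 within number 2). Klrc2, which encodes the activating chain NKG2C, was much lower, at 9.57 and 13.2 CPM with the Hic1 vector and 15.5 and 12.2 CPM with the empty vector (log2 fold change -0.275 ± 0.339). Its differences within the numbers also had opposite signs, -0.68 in number 1 and 0.11 in number 2. Klrc3, which encodes NKG2E, had 29 and 24 counts with the Hic1 vector and 36 and 31 with the empty vector, a log2 value of -1.203 ± 0.476 that did not pass (adjusted p = 0.174 by edgeR). Counts of Klrc1 were 0.522 and 0.501 times those of Klrd1 in the Hic1 vector libraries, and 0.520 and 0.728 times in the empty vector libraries. Klre1, whose product in mouse NK cells pairs with the KLRI proteins, had 70.4 and 114.6 CPM with the Hic1 vector and 77.7 and 67.2 CPM with the empty vector (log2 fold change 0.35 ± 0.226, adjusted p = 0.434). The genes of those partners, Klri1 and Klri2, had 0 counts and at most 11 counts in any library. Of the 2 Hic1 vector libraries, replicate 2 alone was high for Klre1, with a log2 difference of 0.77 within number 2 and -0.14 within number 1.

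Klrk1 encodes NKG2D, the activating receptor for stress-induced ligands, which signals through DAP10 in T cells. It was the most abundant receptor by CPM in both groups' means. The Hic1 vector libraries had 785.6 and 747.2 CPM and the empty vector libraries 1015 and 909.4 CPM. Both Hic1 vector libraries lay below both empty vector libraries, by a log2 difference of -0.37 within number 1 and -0.28 within number 2. The log2 fold change of -0.33 ± 0.121 did not pass (adjusted p = 0.171 by edgeR), and it was -0.14 after correction for GC content. Hcst (DAP10) had 278.2 and 357.0 CPM with the Hic1 vector and 271.4 and 259.6 CPM with the empty vector (log2 fold change 0.26 ± 0.151). Tyrobp (DAP12), the adaptor of the Klra8 and Klra4 products, had 11.5 and 11.1 CPM with the Hic1 vector and 8.74 and 12.5 CPM with the empty vector, and the groups overlapped (0.09 ± 0.352).

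Klrg1 encodes an inhibitory receptor for cadherins. It had 464.2 and 856.2 CPM with the Hic1 vector and 675.3 and 782.0 CPM with the empty vector. The Hic1 vector libraries bracketed the empty vector libraries, and the difference had opposite signs within the replicate numbers, -0.54 in number 1 and 0.13 in number 2. The pooled log2 fold change was -0.14 ± 0.277 (adjusted p = 0.837 by edgeR), and without Hic1 vector replicate 1 it was 0.24.

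Klrb1c encodes NK1.1, an activating receptor that marks NK cells in C57BL/6 mice. It had 416 and 621 counts with the Hic1 vector (58.6 and 70.8 CPM) and 121 and 175 with the empty vector (29.4 and 43.7 CPM). The groups did not overlap, and the log2 differences were 0.99 within number 1 and 0.69 within number 2. The log2 fold change of 0.82 ± 0.231 missed the threshold (adjusted p = 0.0885 by edgeR), and it was called without empty vector replicate 2 (1.12, adjusted p = 0.0495). The gene model Gm44511, which overlaps exons of Klrb1c on the same strand, had 0 counts in every library. Klrb1 and Klrb1b were at 0 in both empty vector libraries and at 3 to 9 counts in the Hic1 vector libraries, near the limit of what this depth can count. Klrb1f had 6.20 and 10.03 CPM with the Hic1 vector and 7.28 and 9.49 CPM with the empty vector.

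**Figure D3:**
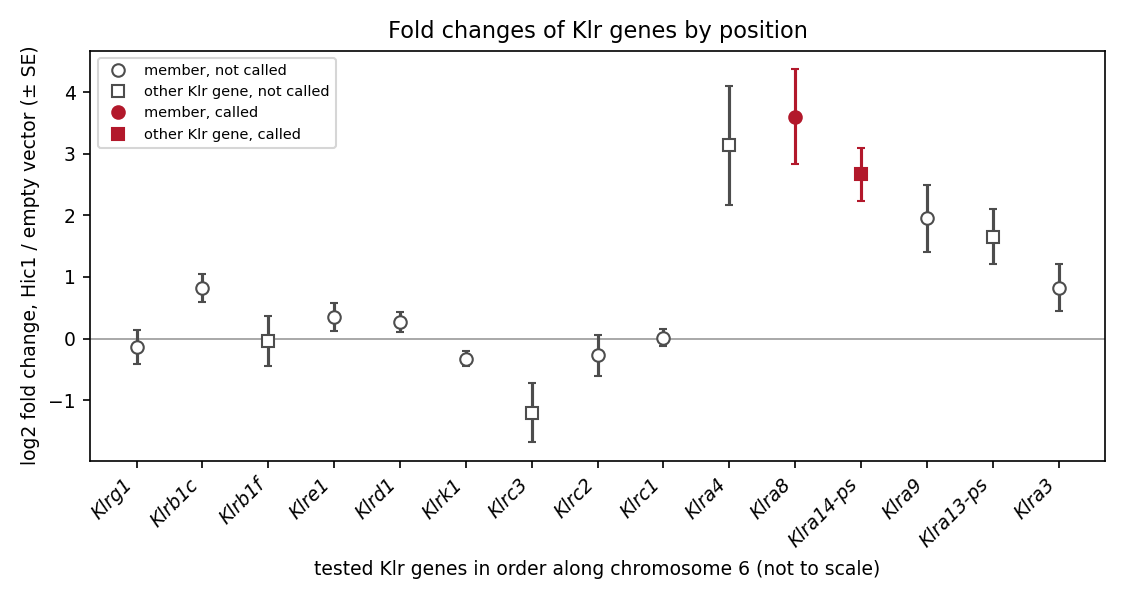
Log2 fold change (Hic1 vector over empty vector) with its SE for the 15 tested Klr genes in their order along chromosome 6, not to scale, with circles for the receptors listed above, squares for other Klr genes and red for calls. The 6 Klra points on the right lie between 0.83 and 3.60, while the Klre1 to Klrc1 points lie between -1.203 and 0.35.

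Positions are given on mm10. All 31 Klr genes are on chromosome 6, and identifiers and versions matched GENCODE M21 throughout. Klrg1 (positions 122270596 to 122282882) lies outside the main cluster. Klre1, Klrd1, Klrk1, Klrc3, Klrc2 and Klrc1 follow each other from 129577905 to 129678973. Of the tested Klra genes, Klra4 is the first, from 130043731, then come Klra8 (130115226 to 130129898), Klra14-ps, Klra9 (130178675 to 130193112), Klra13-ps and Klra3, which ends at 130337574. The untested Klra11-ps, Klra7 and Klra10 lie among them.

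Per kilobase of coding transcript, which allows levels to be compared between genes, the order was nearly the same in both groups. With the Hic1 vector the mean levels in CPM per kilobase were 603.5 for Klrk1, 569.4 for Klrd1, 466.9 for Klrg1, 345.5 for Klrc1, 71.5 for Klre1, 50.5 for Klrb1c, 15.9 for Klra3, 10.4 for Klrc2, 6.98 for Klra8 and 5.94 for Klra9. With the empty vector they were 757.7 for Klrk1, 515.3 for Klrg1, 473.4 for Klrd1, 341.9 for Klrc1, 56.0 for Klre1, 28.6 for Klrb1c, 12.7 for Klrc2, 8.83 for Klra3, 1.33 for Klra9 and 0.312 for Klra8. Neighbours whose libraries overlapped were Klrk1, Klrd1 and Klrg1, then Klrg1 and Klrc1, Klre1 and Klrb1c, Klra3 and Klrc2, Klrc2 and Klra8, and Klra8 and Klra9 with the Hic1 vector. With the empty vector they were Klrg1 and Klrd1, and Klrc2 and Klra3. Lengths are medians over coding transcripts, and with the longest one the empty vector order began with Klrg1 (515.3), Klrd1 (461.0) and Klrk1 (301.0).

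Over the 4 libraries, the tested genes nearest to Klra8 in pattern were Dixdc1 and P2rx7, with Euclidean distances of 0.909 and 0.925 in centred log2 CPM. Such distances grow with the size of a gene's change, so those of Klra8 cannot be read against those of the next 3 receptors. Those 3 were the receptors of highest CPM per kilobase with the empty vector, and their fold changes were small. The Klra8 pattern also rests on 2 and 1 counts with the empty vector. For Klrk1 the nearest genes were Ccdc82 and Capn7 (0.02 each), for Klrd1 AW011738 and Smarcb1 (0.06 and 0.07) and for Klrg1 Rec114 and Gm14276 (0.09 each). The distances describe these 4 libraries only.

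Of the genes for signalling proteins downstream of these receptors, Zap70 rose in RNA. Of 18 tested adaptor and enzyme genes (20 listed), 1 rose, 0 fell and 17 did not pass, with a median log2 fold change of 0.22. Among all genes tested, 0.719% rose and 1.1% fell. Zap70, the kinase recruited by phosphorylated receptor chains, had 415.8 and 486.3 CPM with the Hic1 vector and 268.9 and 300.6 CPM with the empty vector (log2 fold change 0.66 ± 0.140, adjusted p = 0.0430 by edgeR). The Zap70 call was lost in 6 of 13 alternatives, with library size alone (adjusted p = 0.0612), limma voom (0.0541), GC correction (log2 fold change 0.47, adjusted p = 0.148) and 3 of the 4 fits without 1 library (0.0568 to 0.274). Lck, the Src-family kinase, and Sh2d2a, a T cell adaptor, had log2 values of 0.40 ± 0.130 and 0.43 ± 0.139, and Plcg1, the phospholipase, had -0.57 ± 0.155; none passed. Syk, which binds DAP12 in NK cells, had 1 and 1 counts with the Hic1 vector and 1 and 4 with the empty vector. Ptpn6, the phosphatase recruited by inhibitory receptors, had a log2 value of 0.29 ± 0.194 that did not pass.

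Genes of receptor ligands showed no call by edgeR, DESeq2 or limma voom among 7 tested (13 listed), and 4 of the 7 had an unadjusted p below 0.05 by edgeR, as did 19.1% of all genes tested. H2-T23, which encodes the Qa-1 molecule that CD94 and NKG2 chains bind, had 265.4 and 260.9 CPM with the Hic1 vector and 171.9 and 205.1 CPM with the empty vector. Its groups did not overlap and its log2 fold change was 0.48 ± 0.146 (adjusted p = 0.107 by edgeR). H2-K1 and H2-D1, class I genes whose products Ly49 receptors bind and whose reads may be shared with other class I genes, both had log2 values of 0.34 (SE 0.121 and 0.115), and Ulbp1, an NKG2D ligand gene, had -0.64 ± 0.231. H60b, another NKG2D ligand gene, and Clec2d, whose product binds NKR-P1 receptors, had log2 values of 0.13 ± 0.297 and 0.07 ± 0.357. Cdh1, which encodes the KLRG1 ligand E-cadherin, had 10 and 3 counts with the Hic1 vector and 3 and 0 with the empty vector, and Raet1e had 0 and 0 against 1 and 3.

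Of 10 tested NK receptor genes outside the lectin family (13 listed), 1 rose, 0 fell and 9 did not pass, with a median of 0.305. The shares over all genes tested were 0.719% higher and 1.1% lower. Cd160, a receptor of the immunoglobulin superfamily, had 190.9 and 168.2 CPM with the Hic1 vector and 78.2 and 94.9 CPM with the empty vector, a log2 fold change of 1.05 ± 0.164 (adjusted p = 0.0154 by edgeR). Cd244a (2B4) and Fcgr3 (an Fc receptor) had log2 values of 0.93 ± 0.290 and 1.71 ± 0.614, and Slamf7 had -0.33 ± 0.152; none passed. Among 14 lectin genes of the complex without a Klr symbol, 4 were tested and 0 were called by edgeR, DESeq2 or limma voom, with 0 at an unadjusted p below 0.05 by edgeR. Their log2 values were -0.45 ± 1.2 for Clec12a, 0.16 ± 0.633 for Cd69, 0.07 for Clec2d and -0.04 ± 0.216 for Clec2i.

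Of 15 transcription factor genes tied to Klr expression or to effector and memory states, 1 rose, 3 fell and 11 did not pass, with a median of -0.39. Among all genes tested, 0.719% rose and 1.1% fell. The list was chosen with earlier results of these data known. Tcf7, whose product TCF-1 is known to act at Ly49 promoters in NK cells, had 97.9 and 84.0 CPM with the Hic1 vector and 25.5 and 20.0 CPM with the empty vector (log2 fold change 1.98 ± 0.211, adjusted p = 0.00423 by edgeR). Bcl11b, whose loss lets mouse T cells take up NK features, fell to 68.9 and 65.9 CPM with the Hic1 vector, against 126.2 and 128.2 CPM with the empty vector (log2 fold change -0.91 ± 0.154, adjusted p = 0.0204 by edgeR). Tbx21, which encodes T-bet, fell by 0.84 on the log2 scale and Runx3 by 0.71 (adjusted p = 0.0430 and 0.0475 by edgeR). The Runx3 call was lost in 6 of 13 alternatives, among them RLE scaling (adjusted p = 0.0505), a minimum of 5 counts in 2 libraries (0.0543), limma voom (0.0623) and both fits without a Hic1 vector library (0.0932 and 0.0835). The Tbx21 call was lost in 3, without empty vector replicate 1 (log2 value -1.01, adjusted p = 0.0693), without empty vector replicate 2 (-0.66, 0.0959) and without Hic1 vector replicate 2 (-0.65, 0.102). Zeb2, Id2 and Ikzf2 did not pass, at log2 values of -0.65 ± 0.165, -0.39 ± 0.129 and 1.13 ± 0.401. Tcf7 was called in all 13 alternatives. Without empty vector replicate 1, the same edgeR test also lost the calls of Bcl11b (log2 value -0.92, adjusted p = 0.138), Cd160 (0.92, 0.143), Runx3 (-0.53, 0.358), Zap70 (0.59, 0.274) and Hic1 itself (4.34, 0.108). Hic1 was not called by limma voom either (4.68, adjusted p = 0.0784).

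**Figure D4:**
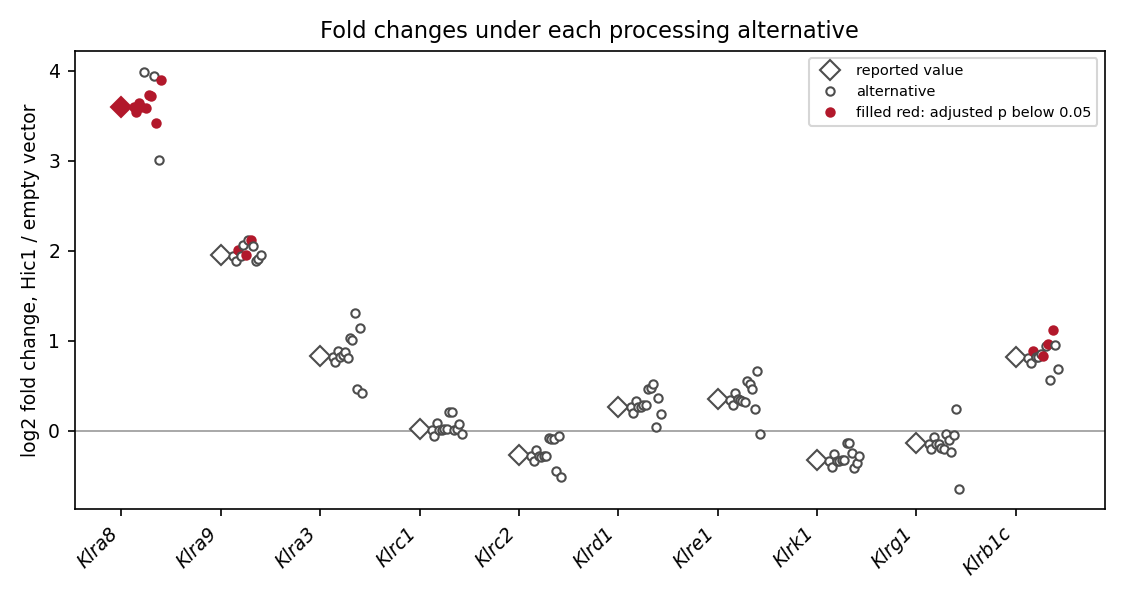
Log2 fold change (Hic1 vector over empty vector) of each receptor gene as reported (diamonds) and under the processing alternatives (circles), filled red where the adjusted p is below 0.05; DESeq2 gave no adjusted p for Klra8 and Klra9 and is not drawn there. Klra8 stays between 3.01 and 3.99 in the points drawn, and Klrc1, Klre1 and Klrg1 have points on both sides of 0.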

How the data were processed

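Messenger RNA of 4 libraries (2 per group) was analysed from the deposited raw table, which holds whole-number counts per gene made by the authors, with no scaling seen. The deposited normalized table was not used. The build mm10 and the tools featureCounts 1.5.3, STAR 2.5.2b, DESeq2 1.3.2 and Trimmomatic 0.38 are named per the submitters' processing notes, without roles. No source used here gives the annotation release, the strand setting or how reads that fit several genes were treated.

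With edgeR 4.0.16, low genes were removed by filterByExpr (here under 1.74 CPM, from a minimum count of 10 and a minimum total of 15). TMM scaling and the robust quasi-likelihood test followed, with group as the model's one term. Log2 fold changes use a prior count of 2, and SEs come from the F statistic and the unshrunken coefficient. CPM uses TMM-scaled library sizes. Transcript lengths, GC content and shared windows come from GENCODE M21, where 99.5% of identifiers were found. Promoter windows were aligned globally with Biopython 1.88. Other versions were R 4.3.3, limma 3.58.1, DESeq2 1.42.0, scipy 1.17.1 and matplotlib 3.10.9. There were 13 alternatives, set out in the closing section.

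The receptors and the gene lists were chosen with earlier results of these data known. Besides the receptors and Hic1, the text names called genes and up to 3 further genes of lowest p in each list, direct adaptors and ligands, and the nearest genes by pattern. Klra5, Klra6, Klra7, Klra1, Klra2, Klra10, Klra11-ps, Klra17, Klri1, Klri2, Klrh1, Klrb1, Klrb1b, Gm44511, Syk, Ptpn6, Ulbp1 and the markers were named after their values were seen.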

Additional observations from a re-analysis of the deposited data

How the results depend on the processing

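Of the 10 receptors, the direction of Klra8, Klra9, Klra3, Klrb1c, Klrd1, Klrc2 and Klrk1 held in every alternative that gave them an adjusted p. Klrc1 turned to -0.059 with library size alone, and with 1 library left out Klrc1 ranged from -0.039 to 0.077, Klre1 from -0.036 to 0.666 and Klrg1 from -0.645 to 0.239, none called. Outside the receptors, Klrb1f turned to 0.022 with no filter on low counts, 0.146 with GC correction and 0.12 with GC correction and the replicate block, and ranged from -0.409 to 0.255 with 1 library left out. Against 1 receptor called as reported, 3 (Klra8, Klra9 and Klrb1c) were called with no filter, with the replicate block and with GC correction plus the block. By contrast 0 were called by limma voom and 0 by DESeq2, with 4 at an unadjusted p below 0.05 by each. DESeq2 set no adjusted p for Klra8 (unadjusted p = 4.564e-05) and Klra9, so those are not lost calls. Leaving out 1 library gave 0 to 2 calls, with 0 without empty vector replicate 1 (5 at an unadjusted p below 0.05) and 0 without Hic1 vector replicate 1 (6). The cause was not tested. Over all genes, against 213 calls, there were 321 with library size alone, 819 with no filter, 420 by DESeq2, 121 by limma voom, 794 with the replicate block, 137 with GC correction, 650 with GC correction and the block, and 8 to 318 with 1 library left out, the lowest without empty vector replicate 1. The same-numbered libraries deviated together (r = 0.239 across 11676 genes), but the labels do not say what a number stands for, so the block is an alternative only; under it Klra4 and Klra13-ps were also called (3.29 and 1.67), and with GC correction added Klra4 was not (3.48, adjusted p = 0.0816). The empty vector libraries are the shallower ones, which limits Klra8 and Klra9 most.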
